A study of Mus musculus with 18 samples.

Results

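Regions of 400 kb on mouse chromosomes 3, 4, 5 and 7 were examined for the translocation joins that piled up in 2 of the 4 G2-arrested libraries without DNA-PKcs. The windows were chosen by the density of joins in these same libraries, so the count, share and position of the joins are given as descriptions with no test. All junctions of the 12 coding-join libraries with a prey position in chr3:107600001-108000000, chr4:133500001-133900000, chr5:140100001-140500000 or chr7:101100001-101500000 (mm10) were taken, 345 of 30937 junctions in all. Of these, 184 lay in the chromosome 3 window, 62 in the chromosome 4 window, 33 in the chromosome 5 window and 66 in the chromosome 7 window.

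The libraries were made by high-throughput genome-wide translocation sequencing (HTGTS) of strain 129 B cells immortalised by the v-abl oncogene, each with an integrated pMX-INV substrate, a construct that the RAG nuclease cuts when the Abl kinase is inhibited. A nested primer on the substrate read out of the bait, the coding end of a RAG break, and into whatever that end had been joined to, the prey. The cells were wild type, carried the CtIP A/A alleles, lacked DNA-PKcs (DNA-PKcs -/-) or were CtIP A/A DNA-PKcs -/-, the last called the double mutant here. Per genotype there was 1 library of G1-arrested cells, given the Abl inhibitor STI571 at 3 µM for 48 or 72 hours, and 2 libraries of G2-arrested cells, given 3 µM STI571 for 24 hours and then the CDK1 inhibitor RO3306 at 10 µM for 48 hours. Every library, wild type included, carried the same kind of substrate and had been exposed to STI571. The labels name no clone, animal or culture, so whether replicates share a cell line is not known here and any p value measures only the spread between these libraries.

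RAG cuts between a coding segment and the recombination signal beside it, whose heptamer has the consensus CACAGTG read away from the coding segment. It leaves a hairpin-sealed coding end and a blunt signal end. DNA-PKcs, a kinase of classical end joining, acts with Artemis to open the hairpin, and without it coding ends persist and can be joined to breaks elsewhere. CtIP promotes resection of DNA ends, from which joins through short shared bases (microhomology) can be made. When a bait end is joined to either side of a break elsewhere, the prey leads away from that break, so prey on the minus strand lies to its left and prey on the plus strand to its right.

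For each cluster the position that best split the strands in this way was taken as the break point. The stretch in which every position split them equally well is shown in capitals, since it is the closest that the joins come to a common break. The sequences are the plus strand of GRCm38.p6, the assembly behind mm10, from chr3:107853056-107853289, chr4:133671380-133671610, chr5:140217428-140217726 and chr7:101228615-101228820.
chromosome 3: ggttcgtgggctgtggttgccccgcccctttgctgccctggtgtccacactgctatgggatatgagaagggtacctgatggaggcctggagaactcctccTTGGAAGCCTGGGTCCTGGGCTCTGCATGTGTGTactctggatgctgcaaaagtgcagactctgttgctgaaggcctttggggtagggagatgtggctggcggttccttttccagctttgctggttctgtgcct
chromosome 4: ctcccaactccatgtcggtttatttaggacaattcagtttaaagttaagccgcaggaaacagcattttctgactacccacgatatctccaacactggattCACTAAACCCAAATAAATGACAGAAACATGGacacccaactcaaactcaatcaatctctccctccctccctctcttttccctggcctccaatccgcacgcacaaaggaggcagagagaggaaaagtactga
chromosome 5: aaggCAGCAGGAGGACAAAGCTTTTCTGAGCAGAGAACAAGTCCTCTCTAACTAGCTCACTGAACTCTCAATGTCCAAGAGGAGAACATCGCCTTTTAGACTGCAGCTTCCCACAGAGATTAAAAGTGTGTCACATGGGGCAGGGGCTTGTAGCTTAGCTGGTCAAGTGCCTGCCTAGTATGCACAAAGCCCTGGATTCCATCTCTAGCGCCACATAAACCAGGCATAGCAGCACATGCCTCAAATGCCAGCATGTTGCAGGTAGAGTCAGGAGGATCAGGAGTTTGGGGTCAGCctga
chromosome 7: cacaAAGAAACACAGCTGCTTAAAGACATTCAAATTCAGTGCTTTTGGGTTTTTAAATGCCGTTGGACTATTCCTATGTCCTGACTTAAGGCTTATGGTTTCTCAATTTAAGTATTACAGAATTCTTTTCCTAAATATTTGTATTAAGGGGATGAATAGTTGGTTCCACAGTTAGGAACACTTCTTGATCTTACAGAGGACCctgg
None of these stretches holds a full heptamer on either strand within 100 bp of the break point. The nearest CACAGTG or its reverse complement CACTGTG was 2258, 2082, 508 and 4469 bp away on chromosomes 3, 4, 5 and 7. Of 400 windows of 200 bp spaced evenly over each region, 8.0%, 5.0%, 8.25% and 4.75% held it. The shorter CACA or its reverse complement TGTG lay 11, 84, 15 and 64 bp from the break points. Most of the same windows held that motif, 89.75%, 86.5%, 91.5% and 87.75%.

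Depth ranged from 289 to 7068 junctions per library, and shares below are of the genome junctions without telomere repeat, 95 to 2378 per library. The replicates of the genotypes without DNA-PKcs stood apart from each other. The DNA-PKcs -/- G1 library and G2 replicate 1 had 0 joins in the 4 windows and 94 joins each in a 400 kb window of chromosome 2 near Tmem189, where G2 replicate 2 had 0 and the wild-type G1 library 71. The labels name no sequencing run, and runs were inferred from the run field of the read names. The first G2 replicates had the lowest value, called run 1. Both libraries that hold the clusters, all the G1 libraries and the other second G2 replicates had other values. These are called run 2 here and may cover more than 1 run. Run and replicate number cannot be told apart among the G2 libraries. No junction recurred between libraries with identical prey base, prey strand and bait end.

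Most joins of each window came from 1 library, and on chromosome 3 almost all did. The double-mutant G2 replicate 2 held 182 of the 184 joins of the chromosome 3 window, 17.8% of its 1020 genome junctions (95% Wilson interval 15.6% to 20.3%). The DNA-PKcs -/- G2 replicate 2 held the other 3 clusters, together 124 of its 627 genome junctions. On chromosome 4 it had 48 of the 62 joins of the window (7.66% of the library's genome junctions, 5.82% to 10.0%). It had 23 of 33 on chromosome 5 (3.67%, 2.46% to 5.44%) and 53 of 66 on chromosome 7 (8.45%, 6.52% to 10.9%). In each of these 2 libraries 0.0806% of all 200 kb windows of the genome held 10 or more joins. This density is what chose the regions.

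The partner replicates did not share the clusters. The double-mutant G2 replicate 1 had 3 joins in the 4 windows among 878 genome junctions and none on chromosome 3, where a count of 0 allows a share of up to 0.342%. The DNA-PKcs -/- G2 replicate 1 had none in any window among 615, which allows up to 0.488%. Conversely, the double-mutant G2 replicate 2 had none in the windows on chromosomes 4, 5 and 7, and the DNA-PKcs -/- G2 replicate 2 none on chromosome 3. The wild-type G1 library held 15 joins, the wild-type G2 replicates 1 and 0, the CtIP A/A G1 library 4 and the CtIP A/A G2 replicates 1 and 2, and the double-mutant G1 library 13. Intervals and limits of a count of 0 cover counting error only, since the reads carried no molecular identifiers in the columns used.

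**Figure D1:**
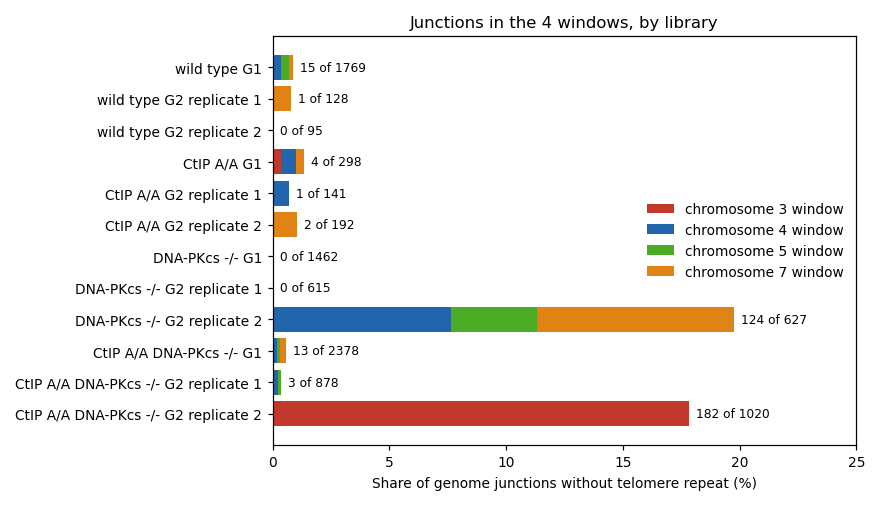
Share of genome junctions without telomere repeat (%, horizontal axis) that fell in the 4 windows in each of the 12 libraries, stacked by window, with the counts beside each bar. The bars of the DNA-PKcs -/- and the double-mutant G2 replicate 2 reach 19.8% and 17.8%, and the bars of the 10 other libraries stay at or below 1.34%.

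The chromosome 3 cluster opened in intergenic sequence. Its break point fell within chr3:107853156-107853189, a stretch of 34 bp, 19.6 kb to the right of the long non-coding RNA gene Gm36211 and 14.9 kb to the left of Gm5075. The nearest protein-coding genes were Csf1, which encodes the macrophage growth factor M-CSF, 92.7 kb to the left, and Eps8l3, 24.1 kb to the right. Of the 182 joins, 149 were in strand order about that point (81.9%, 75.6% to 86.8%). Within 5 kb of it, 119 of 129 joins were in order.

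The chromosome 4 cluster was centred in an intron of Pigv (ENSMUSG00000043257.15, chr4:133660387-133672647, minus strand), which encodes a mannosyltransferase of GPI anchor synthesis. Its break point fell within the 31 bp of chr4:133671480-133671510, and 47 of 48 joins were in strand order (97.9%, 89.1% to 99.6%). Pigv held 36 of the 48 joins, and 40 of the 41 joins within 5 kb of the break point were in order. Arid1a, a subunit gene of the SWI/SNF chromatin remodeller whose 3′ end lies 7.51 kb to the right, held 2, and Zdhhc18, a palmitoyltransferase gene, 1.

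The chromosome 5 cluster lay in an intron of Mad1l1 (ENSMUSG00000029554.15, chr5:140008689-140321552, minus strand), a gene of the spindle assembly checkpoint. Mad1l1 held 22 of its 23 joins. Its break point could be placed only within 291 bp, chr5:140217432-140217722, and 22 of 23 joins were in strand order (95.7%, 79.0% to 99.2%). All 19 joins within 5 kb were in order.

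The chromosome 7 cluster lay in an intron of Fchsd2 (ENSMUSG00000030691.15, chr7:101092863-101284405, plus strand), which encodes a membrane-bending protein of endocytosis. Fchsd2 held 52 of the 53 joins and the remaining join lay in Atg16l2. The break point fell within the 198 bp of chr7:101228619-101228816, 49 of 53 joins were in strand order (92.5%, 82.1% to 97.0%), and within 5 kb 40 of 41 were. Because each break point was placed where it made the order best, these shares are the highest the joins allow and are not a test.

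**Figure D2:**
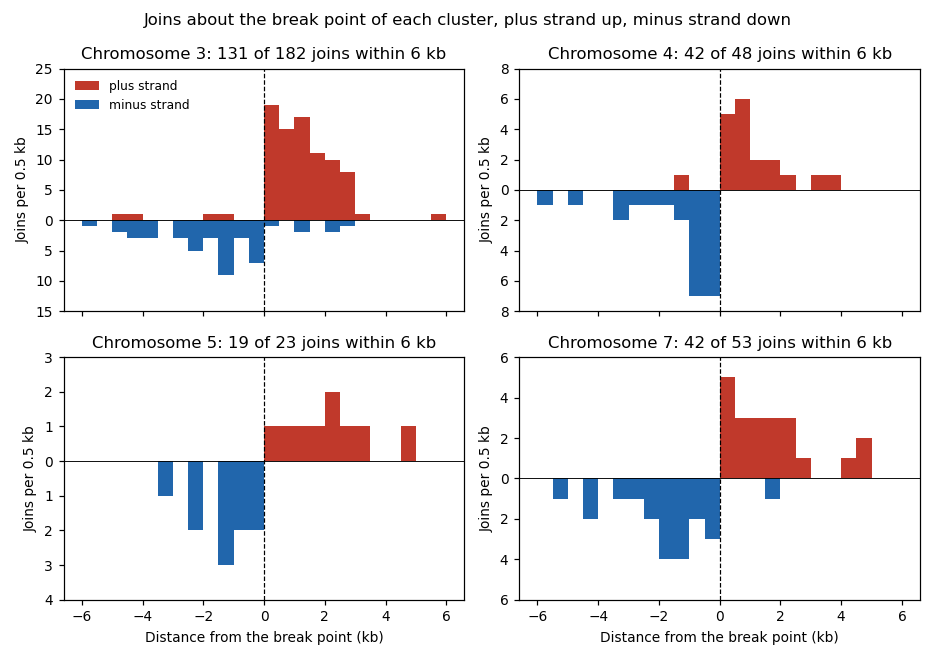
Joins per 0.5 kb (vertical axis) against distance from the break point (kb) in the library that holds each cluster, plus-strand prey drawn upwards in red and minus-strand prey downwards in blue. Red bars lie almost wholly to the right of the dashed break point and blue bars to the left, with 119 of 129, 40 of 41, 19 of 19 and 40 of 41 joins within 5 kb in that order on chromosomes 3, 4, 5 and 7.

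The joins spread over kilobases and were not stacked on 1 base. The 182 joins of chromosome 3 used 174 positions, of which 7 were used more than once and 1 at most 3 times, and the joins of the other 3 clusters each had a position of their own. Counting each combination of prey base, prey strand and bait end once left 178 distinct junctions on chromosome 3 and all 48, 23 and 53 on the others. Between 98.96% and 99.65% of the aligned prey bases of each cluster were marked as matching in the deposited alignments, and the median prey alignment was 62, 70.5, 67 and 62 bp. No join of the clusters carried telomere repeat or uncut bases. The most used position, chr3:107853190 on the plus strand, took 3 joins with 3 different bait ends and was the first base to the right of the stretch in capitals.

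The median distance from the break point was 2032 bp on chromosome 3 (95% interval from order statistics 1618 to 2424 bp), 921 bp on chromosome 4 (682 to 1762 bp), 2163 bp on chromosome 5 (1076 to 3011 bp) and 1872 bp on chromosome 7 (1306 to 2605 bp). The chromosome 4 interval overlapped those of chromosomes 3, 5 and 7. The share of joins within 5 kb was 70.9%, 85.4%, 82.6% and 77.4%. Chromosome 3 was asymmetric, with a median of 1269 bp for the 89 joins to the right (975 to 1521 bp) and 14917 bp for the 93 joins to the left (4184 to 32372 bp). Among its joins in strand order the medians were 1234.5 bp (799 to 1459 bp) and 4158 bp (2081 to 13378 bp). On chromosomes 4, 5 and 7 the medians were 825.5, 2566 and 1513 bp to the right and 1062, 1133 and 2541.5 bp to the left. The intervals of the sides overlapped on each of these chromosomes.

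Join density fell with distance on every chromosome, though not evenly. To the right of the chromosome 3 break point it was 40 joins per kb in the first 0.5 kb, 30 to 1 kb and 28 to 2.5 kb, then 4.0 to 5 kb and 0.133 from 5 to 20 kb. To the left it was 14, 6.0, 12.7, 5.2 and 0.4 joins per kb over the same steps. The right side was thus a plateau of about 2.5 kb with a steep edge, and the left side a longer tail. On chromosome 4 the density over both sides was 12 and 13 joins per kb in the first steps, then 3.33, 1.2 and 0.133. On chromosome 7 it was 8.0, 5.0, 6.67, 1.6 and 0.133, and on chromosome 5, from 23 joins, 2.0, 4.0, 3.0, 0.8 and 0.0333.

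**Figure D3:**
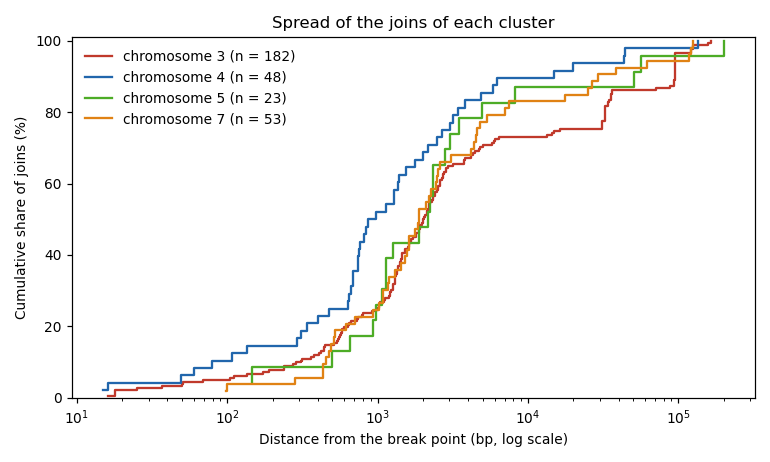
Cumulative share of the joins of each cluster (%, vertical axis) against distance from the break point (bp, log scale). The chromosome 4 line rises first, to its median at 921 bp, and the chromosome 3 line steps up again beyond 20 kb, where 45 of its 182 joins lie.

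Beyond 20 kb, chromosome 3 had 45 joins, all of them to the left of the break point, and only 23 of the 45 were in strand order (51.1%, 37.0% to 65.0%). The other clusters had 3, 3 and 8 joins at that distance. Of these far joins 17 lay in Csf1, 12 in Gm36211 and 2 in Ahcyl1, a regulator gene of inositol-phosphate signalling. Many of them were stacked. Taking runs of at least 3 joins no more than 15 bp apart, a rule set after the values were seen, and counting neighbouring runs as 1 site, gave 4 sites that held 24 of the 45.

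Site 1 held 3 joins (1 minus, 2 plus) at chr3:107757599-107757620 and site 2 held 11 (4 minus, 7 plus) at chr3:107758787-107758871, both in an intron of Csf1, 95.6 and 94.3 kb to the left of the break point. Site 3 held 6 joins (5 minus, 1 plus) at chr3:107820778-107820823 in an exon of Gm36211, 32.4 kb to the left. Site 4 held 4 plus-strand joins at chr3:107821986-107821996 in an intron of the same gene, 31.2 kb to the left. At site 2 the last minus-strand join lay at 107758806 and 6 of the 7 plus-strand joins at 107758849 to 107758871, so that these groups faced away from the gap between them. At site 3 the minus-strand joins ended at 107820812 with the plus-strand join at 107820823. At site 1 the minus-strand join lay to the left of both plus-strand joins. The joins of sites 1 to 4 thus fell on both strands to the left of the main break point.

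**Figure D4:**
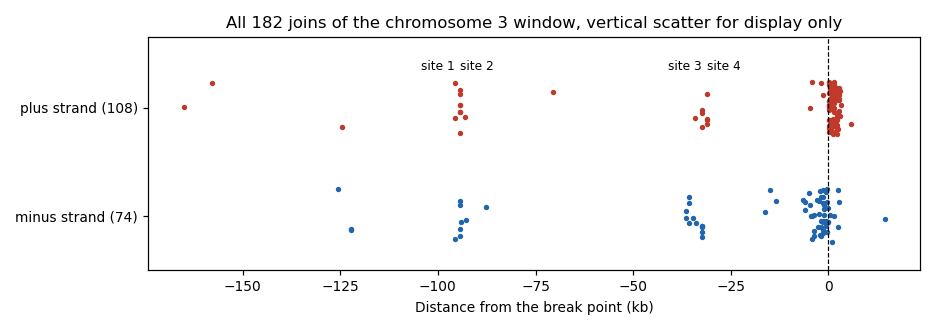
Distance from the break point (kb, horizontal axis) of each of the 182 joins in the chromosome 3 window in the double-mutant G2 replicate 2, plus-strand prey above and minus-strand prey below, spread vertically for display only. Joins crowd at the dashed break point, and the stacked sites 1 to 4 stand 95.6, 94.3, 32.4 and 31.2 kb to its left and no join lies more than 20 kb to its right.

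Sites 3 and 4 each contained a heptamer, and sites 1 and 2 had none within 100 bp. Sites 3, 4 and 2 are shown with 20 bp on either side, from chr3:107820758-107820843, chr3:107821966-107822016 and chr3:107758767-107758891, with the heptamer in capitals, because joins abut it in the first 2.
site 3: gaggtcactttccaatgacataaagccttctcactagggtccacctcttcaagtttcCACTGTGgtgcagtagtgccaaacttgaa
site 4: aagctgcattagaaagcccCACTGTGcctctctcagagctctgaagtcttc
site 2: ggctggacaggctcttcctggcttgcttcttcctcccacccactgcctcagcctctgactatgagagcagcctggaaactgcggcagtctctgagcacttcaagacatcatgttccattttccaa
At site 3 the heptamer occupied chr3:107820815-107820821, the nearest minus-strand join lay 3 bp before it and the plus-strand join 2 bp after it. At site 4 it occupied chr3:107821985-107821991, and the 4 joins started 1, 2, 8 and 11 bp from its first base, the last 2 of them 2 and 5 bp beyond its end. The sites were chosen for their stacking, so these distances are a description.

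Nearness to a heptamer was then counted for all joins of the windows. The 4 windows hold 520 copies of CACAGTG on either strand, and 1.2% of window positions lie within 15 bp of one. Of the 76 joins of the cluster-holding libraries more than 5 kb from a break point, 12 were that close (15.8%), 8 of them joins of sites 3 and 4, which had been chosen for their stacking. Outside these sites it was 4 of 66 (6.06%), and on chromosomes 5 and 7 none of 4 and none of 12. Of the 230 joins within 5 kb, 2 were (0.870%). Of the 39 joins of the other libraries, 3 were (7.69%). Joins of 1 library share its DNA and stacked joins share a site, so they are not independent counts.

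A stricter reading, also made after the values were seen, counted joins that started 1 to 5 bp outside a heptamer, on the side where the coding segment of a recombination signal would be, with the prey running away from it. Of all positions and strands in the windows 0.0813% meet this. There were 6 such joins among the 76 far joins (7.89%, 3.67% to 16.2%), 3 of them in sites 3 and 4, 0 among the 230 near ones, which allows a share of up to 1.30%, and 3 among the 39 of other libraries (7.69%, 2.65% to 20.3%). The 9 joins came from 5 libraries and 7 heptamers. The heptamers outside sites 3 and 4 are shown on the plus strand with 20 bp on either side. Their joins come from 5 libraries and include a place where joins of different genotypes met. Another such place, on chromosome 4 and given below, had no heptamer within 100 bp.
chr3:107688033-107688079: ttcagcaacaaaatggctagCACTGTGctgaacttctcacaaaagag
chr3:107728624-107728670: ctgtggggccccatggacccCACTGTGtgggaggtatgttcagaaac
chr4:133656624-133656670: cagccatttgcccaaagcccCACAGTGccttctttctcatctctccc
chr4:133816115-133816161: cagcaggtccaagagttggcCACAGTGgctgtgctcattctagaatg
chr5:140174173-140174219: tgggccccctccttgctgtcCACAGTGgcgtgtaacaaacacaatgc
On chromosome 3 the double-mutant G2 replicate 2 had a plus-strand join 3 bp past the heptamer in an intron of Ahcyl1, 165 kb to the left of the break point, and another 1 bp past the intergenic heptamer 125 kb to the left. At the first heptamer listed for chromosome 4, intergenic and 14.9 kb to the left of the break point, the DNA-PKcs -/- G2 replicate 2 had a minus-strand join 1 bp before it and the CtIP A/A G1 library a minus-strand join 4 bp before it. These joins from different libraries lay 3 bp apart, with bait deletions of 8 and 0 bp and insertions of 10 and 1 bp. It was the only place where a join of a cluster-holding library lay within 5 bp of a join of another library on the same strand. The remaining 2 joins, both on the minus strand, were 2 bp before a heptamer in the double-mutant G1 library and 3 bp before one in an intron of Mad1l1 in the wild-type G1 library.

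The 39 joins of the other libraries were not arranged about the break points. They came from 7 libraries, 18 of the 39 were in the strand order of the cluster, and their median distance from its break point was 84.9 kb. Only 2 lay within 5 kb. A plus-strand join of the CtIP A/A G1 library was 0.951 kb to the right of the chromosome 3 break point, in order, and a plus-strand join of the double-mutant G2 replicate 1 was 3.19 kb to the left of the chromosome 5 break point, out of order. Arid1a held 6 joins over all libraries and Arap1, a signalling gene on chromosome 7, held 5, none of them from the library with the chromosome 7 cluster. Snx8, a sorting nexin gene on chromosome 5, held 2, and the overlapping genes Pde2a, a phosphodiesterase gene, and Gm45837 held the same 4 on chromosome 7. Some of these joins recurred within 5 bp, for example 3 minus-strand joins of the wild-type G1 library at chr5:140197920-140197925 in Mad1l1, and a plus-strand pair at chr4:133596220-133596222 from the CtIP A/A G1 and the wild-type G1 library. No heptamer lay within 100 bp of either. The shorter CACA or its reverse complement lay within 10 bp of both, and of a wild-type G1 pair at chr4:133748546-133748548. It did not for the double-mutant G1 pairs at chr4:133776886-133776887 and chr7:101459201. How many stretches of this length hold it was not counted.

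The bait ends joined in the clusters had lost a median of 5 to 25 bp. Bait deletion was counted in bp from position 1943 of the substrate, taken as the first coding base beside the heptamer. Joins whose bait alignment ran past it counted as 0. The substrate sequence was not used here, and the border was checked in the reads: of the 293 bait alignments of the 12 libraries that ran at least 7 bp past it, 254 read CACAGTG as the next 7 bases (86.7%). The median was 5 bp on chromosome 3 (2 to 7 bp), 13 bp on chromosome 4 (6 to 23 bp), 25 bp on chromosome 5 (5 to 56 bp) and 16 bp on chromosome 7 (9 to 24 bp). Deletions over 100 bp were found in 20 of 182 joins on chromosome 3, in 0 of 48 on chromosome 4 and in 2 each of 23 and 53 on chromosomes 5 and 7. The longest measured were 146, 82, 127 and 129 bp. Substrate and dispersed joins of these libraries reached 148 and 149 bp, and whether longer deletions could be read was not tested.

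In some joins the bait alignment ran past the coding border, and where these bases came from was not tested. The bait ran past the border in 50 of 182 joins on chromosome 3 (27.5%, 21.5% to 34.4%) and 9 of 48 on chromosome 4 (18.8%, 10.2% to 31.9%). It did so in 3 of 23 on chromosome 5 (13.0%, 4.54% to 32.1%) and 9 of 53 on chromosome 7 (17.0%, 9.20% to 29.2%). Of those on chromosome 3, 37 ended at the same base, 2 bp past the border, and so did 5 of 9, 3 of 3 and 8 of 9 on the other chromosomes. Homology to the prey was present in 30 of the 50. In the substrate's own joins of the same libraries the bait ran past the border in 11.4% (double mutant) and 7.66% (DNA-PKcs -/-). In their dispersed joins, defined below, it did so in 3.47% (2.34% to 5.12%) and 11.1% (8.61% to 14.3%). Of these dispersed joins past the border, 7 of 24 and 42 of 53 ended 2 bp past it.

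Split by the side of the break point, the median deletion on chromosome 5 was 5 bp for the 11 joins to the left (0 to 52 bp) and 44.5 bp for the 12 to the right (11 to 87 bp), and the intervals overlapped. It was 7 and 4 bp on chromosome 3, 13 and 12 bp on chromosome 4 and 19 and 10 bp on chromosome 7.

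Most cluster joins shared bases between bait and prey. Homology of at least 1 bp was found in 135 of 182 joins on chromosome 3 (74.2%, 67.4% to 80.0%), 31 of 48 on chromosome 4 (64.6%, 50.4% to 76.6%), 17 of 23 on chromosome 5 (73.9%, 53.5% to 87.5%) and 40 of 53 on chromosome 7 (75.5%, 62.4% to 85.1%). The intervals of the 4 clusters overlapped. The overlaps were short, with a median of 2, 2, 3 and 2 bp among joins that had one, and 33, 5, 4 and 9 joins shared 4 bp or more. The shared bases equalled the reference in 134 of 135, 30 of 31, 17 of 17 and 40 of 40 joins.

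The longest shared runs that equalled the reference in every base are shown in capitals, 1 per cluster, to make the scale of the homology visible. They are written in the direction of the prey, which is the minus strand on chromosomes 3 and 7 and the plus strand on chromosomes 4 and 5, from chr3:107852775-107852830, chr4:133672157-133672213, chr5:140222507-140222562 and chr7:101228396-101228454.
chromosome 3, 6 bp: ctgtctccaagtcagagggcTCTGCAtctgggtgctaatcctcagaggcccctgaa
chromosome 4, 7 bp: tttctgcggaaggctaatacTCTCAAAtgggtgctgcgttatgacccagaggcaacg
chromosome 5, 6 bp: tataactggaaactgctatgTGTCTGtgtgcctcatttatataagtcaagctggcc
chromosome 7, 9 bp: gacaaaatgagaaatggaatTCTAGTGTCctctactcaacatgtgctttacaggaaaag
These joins lay 362 bp to the left, 682 bp to the right, 4950 bp to the right and 283 bp to the left of their break points. The longest overlaps of all, 7 bp on chromosome 3 and 14 bp on chromosome 4, each held a base that differed from the reference.

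Insertions were fewer. They occurred in 28 of 182 joins on chromosome 3 (15.4%), 12 of 48 on chromosome 4 (25%), 4 of 23 on chromosome 5 (17.4%) and 8 of 53 on chromosome 7 (15.1%), and the longest were 16, 19, 11 and 20 bp. Of them 11, 6, 3 and 2 were over 3 bp. Direct joins, with neither, made up 10.4%, 10.4%, 8.70% and 9.43%. On chromosome 3, homology was present in 27 of the 45 joins beyond 20 kb (60.0%, 45.5% to 73.0%) and in 102 of the 129 within 5 kb (79.1%, 71.3% to 85.2%). Direct joins made up 22.2% (12.5% to 36.3%) and 6.20% (3.18% to 11.8%) of them. These are joins of 1 library and the difference was not tested over libraries.

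The joins of the windows were set against dispersed joins of the same library, those to the genome outside the windows, outside antigen receptor loci and without telomere repeat. Homology was present in 74.2% against 38.6% of joins in the double-mutant G2 replicate 2 (182 and 691 joins), and in 71.0% against 24.6% in the DNA-PKcs -/- G2 replicate 2 (124 and 476 joins). The other libraries with at least 10 joins in the windows, which held no cluster, were the wild-type G1 library, with 60.0% against 43.1%, and the double-mutant G1 library, with 61.5% against 48.2%. The mean difference was 28.0 ± 15.6 percentage points (SD, n = 4 libraries), higher in 4 of 4. The exact two-sided sign-flip permutation test gave p = 0.125, adjusted p = 0.167 by Benjamini-Hochberg over 4 measures, and 0.125 is the smallest p that 4 libraries allow. With homology of at least 4 bp the difference was 3.01 points, higher in 3 of 4 libraries (adjusted p = 0.625 in the same exact permutation test).

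The share with insertions was lower in the windows than among dispersed joins in all 4 libraries. The mean difference was -17.9 ± 7.59 percentage points (windows minus dispersed, SD, n = 4, exact permutation p = 0.125, adjusted p = 0.167). The 4 libraries again included the G1 libraries that held no cluster. In the libraries that hold the clusters insertions were found in 15.4% against 37.0% and in 19.4% against 41.4%. Direct joins differed by -10.2 ± 13.5 points, with the lower share in the windows in 3 of 4 libraries (exact permutation p = 0.25, adjusted p = 0.25). The median bait deletion differed by -21.6 ± 35.1 bp, smaller in 4 of 4 libraries (exact permutation p = 0.125, adjusted p = 0.167). That mean rests on the double-mutant G2 replicate 2, with 5 bp against 79 bp, and without it the difference was -4.17 bp. In that library the dispersed median was 33 bp outside repeat-masked sequence and without joins that held 2 telomere repeat units. With only the masked positions left out, the difference over the 4 libraries was -8.75 bp (adjusted p = 0.333 in the exact permutation test). In the DNA-PKcs -/- G2 replicate 2 the medians were 16 and 16.5 bp. Over the cluster-holding libraries alone (n = 2) the mean difference was 41.0 points for homology and -21.8 for insertions. It was -19.1 points for direct joins and -37.25 bp for bait deletion.

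Other properties of the dispersed joins moved with these differences. Their prey lay in repeat-masked sequence in 58.8% (double mutant) and 72.1% (DNA-PKcs -/-) of joins, against 12.1% and 18.5% in the windows. Their median prey alignment was 43 and 37 bp against 62 and 68 bp, and 28.9% and 45.0% held 2 telomere repeat units against 0 in the windows. Outside masked sequence, and without such units among the dispersed joins, homology was present in 75.6% against 49.8% and in 67.3% against 33.3%. With masked positions, 2 telomere units and prey under 30 bp all left out, the mean difference over the 4 libraries was 14.2 points (adjusted p = 0.5 in the exact permutation test). Among the substrate's own joins homology was present in 37.0% in the double-mutant and 54.2% in the DNA-PKcs -/- G2 replicate 2, and in the antigen receptor loci in 39.5% and 37.0%.

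The chromosome 2 window near Tmem189 held most of its joins in 2 DNA-PKcs -/- libraries and the wild-type G1 library. The highest count elsewhere was 6, among the 128 genome junctions of the wild-type G2 replicate 1, and the double-mutant libraries held 0. The window had homology in 76.6% of 94 joins in the DNA-PKcs -/- G2 replicate 1, in 52.1% of 94 in the DNA-PKcs -/- G1 library and in 36.6% of 71 in the wild-type G1 library. The median bait deletions there were 41, 24.5 and 4 bp.

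**Figure D5:**
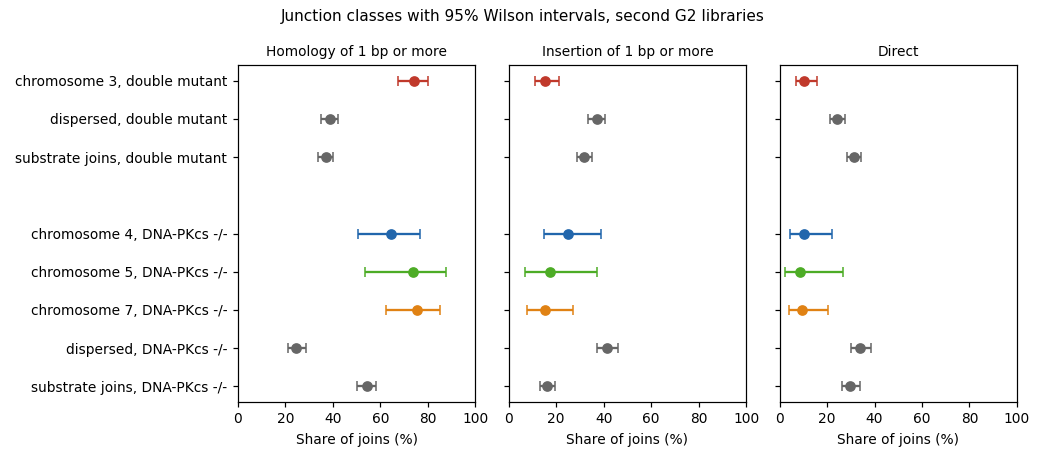
Share of joins (%, horizontal axis) with homology, with an insertion and with neither, with 95% Wilson intervals, for each cluster and for dispersed and substrate joins in the double-mutant (upper rows) and the DNA-PKcs -/- (lower rows) G2 replicate 2. The coloured cluster points lie between 64.6% and 75.5% for homology, to the right of the grey dispersed points at 38.6% and 24.6%.

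The regions were taken by their coordinates, which go back to 200 kb windows with at least 10 joins and 2% of a library's genome junctions. By count the sparsest of them held the chromosome 5 cluster, with 21 joins in 200 kb (3.35%). By share it was chr3:107600001-107800000 in the double-mutant G2 replicate 2, with 25 joins (2.45%). That limit alone does not set the 4 regions apart, since other windows passed it in the same libraries. One lay in the Igk locus in the double-mutant G2 replicate 2. Others held stacked joins, such as chr16:98000001-98200000 in the DNA-PKcs -/- G2 replicate 2, with 27 joins at 14 positions, 77.8% of them with 2 telomere repeat units. A further window of that library, chr6:53000001-53200000, had 17 joins (2.71%) at 17 positions, with an interquartile range of 541 bp and 2 telomere repeat units in 29.4%. Just below the limit in the double-mutant G2 replicate 2 was chr12:113400001-113600000, in the Igh locus, with 16 joins (1.57%), followed by chr19:32000001-32200000, with 14 joins (1.37%) at 14 positions and an interquartile range of 2047 bp.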

How the data were processed

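Junction tables of 12 coding-join libraries were used. Per the labels' protocols, DNA was sonicated, amplified from a biotinylated bait primer and sequenced on a MiSeq, and the alignment used mm10 plus the substrate as an extra chromosome. Bowtie2 and mm10 are named in the submitters' processing notes. The junction caller, tool versions and any removal of duplicates are not given in the sources used here. Each deposited line is 1 junction. Its columns, per the file headers, hold bait and prey base positions, with no normalization. The deposited uncut column is a count of bases past the cut site and was used only as a filter.

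Where the bait and prey alignments overlapped on a read, the overlap was the homology, and a gap between them was the insertion. Telomere repeat meant at least 3 exact units in the prey. Positions were read from GRCm38.p6 and genes from GENCODE M21, with pysam 0.24.0, pandas 2.3.3, numpy 2.4.6, scipy 1.17.1 and matplotlib 3.10.9 under Python 3.11.15. Differences from dispersed joins were taken within each library with at least 10 joins in the windows and tested by exact sign flips.

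Genes named are those that hold or neighbour a break point and the 3 per window with the most joins. The regions, lists and measures were chosen with earlier results of these data known. The 6 samples with I-PpoI breaks were not analysed here.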

Additional observations from a re-analysis of the deposited data

How the results depend on the processing

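Each cluster rests on 23 to 182 joins of 1 library. Depth does not limit its comparison with the partner replicate, which had 615 against 627 and 878 against 1020 genome junctions, but it limits the shares of junction classes within a cluster. Leaving out each G2 replicate in turn moved the joins over all libraries between 2 and 184 on chromosome 3, 14 and 62 on chromosome 4, 10 and 33 on chromosome 5, and 13 and 66 on chromosome 7, the low values being those without the library that holds the cluster. With telomere-repeat junctions kept in the denominator the shares were 9.47%, 2.64%, 1.26% and 2.91%. With the break point of chromosome 3 at the midpoint of the strand medians, 73.6% of joins were in order and the median distance was 2852.5 bp. For the chromosome 5 joins alone the median bait deletion was 8.5 bp larger than in dispersed joins, against -0.5 bp for the windows of that library together.

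Over the alternatives the mean difference ranged from 3.01 to 41.0 points for homology, -21.8 to -9.56 for insertions and -19.1 to -4.67 for direct joins, and from -37.2 to -4.17 bp for bait deletion, with adjusted p from 0.167 to 0.625. Without the DNA-PKcs -/- or the double-mutant G2 replicate 2 the homology difference was 21.9 and 25.6 points. The replicate block, with differences averaged over libraries that share a replicate number, left it at 28.0 points with p = 0.5, the smallest that 2 blocks allow in an exact permutation. The blocks were the G1 libraries without a cluster and the G2 libraries with one. Replicate number could therefore not be told apart from arrest phase or from holding a cluster. The alternatives on masked sequence, telomere units and cluster-holding libraries were chosen after seeing the data. Setting a break point from a second library was not run, since no cluster had 10 joins in another library.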
